A study of Mus musculus with 4 samples.

Results

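Bidirectional promoters are stretches of DNA between 2 genes that start close together and are read in opposite directions. The 714 accessible regions described here lay at such promoters of protein-coding gene pairs, out of 32011 distinct regions (2.23%, 95% Wilson interval 2.07 to 2.40) found by ATAC-seq in organoids grown from the mouse submandibular gland (mSGOs). A region counted when its midpoint lay within 1 kb of the 5′ ends of both genes of a pair, with the genes on opposite strands, pointing away from each other, and their ends at most 1 kb apart. There were 698 such pairs, made of 1389 genes, with 7 genes in more than 1 pair. The median distance between the 2 ends was 102 bp (quartiles 50 and 235). Openness was not used to choose the pairs, so the share of pairs with a region and all values of the regions are measurements.

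The 4 ATAC-seq samples were organoids of C57BL/6 submandibular gland, kept in Matrigel and WRY medium (with Wnt3a, R-spondin1, EGF, FGF2 and the kinase inhibitor Y27632) and not irradiated. Passages 1 and 2 each held 2 samples, one labelled with a mouse age of 12 weeks and the other with 3 months. The study describes 7-day organoids for this assay and 4 mice as their source. The series holds 1 list of regions for the 4 samples together, with no value per sample, so the passages could not be compared, the spread between samples and the depth of each library are unknown, and no test across samples was possible. A low fold in such a pool may come from few cells or from little opening in all cells, and these cannot be told apart. Intervals below cover the counting of genes or regions only, and genes are positions of 1 genome, not replicates.

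ATAC-seq cuts DNA where nucleosomes and other proteins leave it exposed, and active promoters are among the most exposed places of a genome. Divergent gene pairs are common in mammals, often share 1 CpG-rich, TATA-less promoter, and are known for housekeeping genes such as those of DNA repair and the mitochondria, and for the histone genes, which are transcribed during DNA synthesis. Several proteins bind short sites in such promoters: NF-Y binds the CCAAT box, ETS factors such as GABP bind a GGAA core, SP and KLF factors bind GC boxes, and NRF1 binds a palindromic GC-rich site.

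The stretches between the 2 starts of 9 pairs are shown as picked examples, not as typical ones (RefSeq, GRCm38.p6, plus strand, 5′ to 3′). Each runs from the base after the minus-strand gene's end to the base before the plus-strand gene's end. All 9 carry marked sites, while 32 of the 127 stretches of 30 bases or more that could be read held none of the sites searched for. Capitals mark the CCAAT box (CCAAT or ATTGG), the GC box (GGGCGG or CCGCCC), the ETS site (CCGGAAG or CTTCCGG) and the NRF1 site (GCATGCGC or its reverse complement). The first 4 are histone H2A/H2B pairs and are shown for their repeated CCAAT boxes. The next 4 are shown because each held a strong region at a gene of DNA replication (Rpa3) or repair (Apex1, Xrcc4) or carried 3 kinds of site (Pigf/Cript). The last had no region in the organoids although it also carried such sites.
H2ac12/H2bc12, chr13:22035644-22035820: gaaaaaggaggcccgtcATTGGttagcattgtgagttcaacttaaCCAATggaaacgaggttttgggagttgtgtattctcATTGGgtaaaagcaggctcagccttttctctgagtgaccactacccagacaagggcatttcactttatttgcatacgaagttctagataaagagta
H2bc23/H2ac23, chr13:21810200-21810366: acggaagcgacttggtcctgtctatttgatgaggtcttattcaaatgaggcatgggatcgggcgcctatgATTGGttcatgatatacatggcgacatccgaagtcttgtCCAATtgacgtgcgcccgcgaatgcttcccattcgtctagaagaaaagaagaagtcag
H2ac15/H2bc15, chr13:21753913-21754075: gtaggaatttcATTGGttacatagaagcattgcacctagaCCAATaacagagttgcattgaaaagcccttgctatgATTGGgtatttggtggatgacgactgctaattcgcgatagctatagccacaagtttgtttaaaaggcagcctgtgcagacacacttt
H2ac11/H2bc11, chr13:22042950-22043197: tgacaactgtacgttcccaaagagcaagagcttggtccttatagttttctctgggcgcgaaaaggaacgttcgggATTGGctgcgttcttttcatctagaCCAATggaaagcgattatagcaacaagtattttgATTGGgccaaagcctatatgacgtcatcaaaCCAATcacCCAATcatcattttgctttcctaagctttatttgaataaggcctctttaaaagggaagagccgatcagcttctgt
Rpa3/Umad1, chr6:8259142-8259287: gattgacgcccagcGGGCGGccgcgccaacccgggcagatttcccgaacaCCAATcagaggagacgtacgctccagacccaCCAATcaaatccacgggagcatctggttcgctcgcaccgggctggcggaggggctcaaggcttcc
Osgep/Apex1, chr14:50924894-50924948: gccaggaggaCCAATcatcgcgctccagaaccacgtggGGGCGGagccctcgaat
Xrcc4/Tmem167, chr13:90089609-90089666: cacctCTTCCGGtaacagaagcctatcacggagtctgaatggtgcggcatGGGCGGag
Pigf/Cript, chr17:87025402-87025560: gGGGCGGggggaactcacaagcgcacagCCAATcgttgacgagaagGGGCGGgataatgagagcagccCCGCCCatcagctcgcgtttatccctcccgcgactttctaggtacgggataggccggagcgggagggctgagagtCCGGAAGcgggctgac
Slc39a7/Rxrb, chr17:34031691-34031811: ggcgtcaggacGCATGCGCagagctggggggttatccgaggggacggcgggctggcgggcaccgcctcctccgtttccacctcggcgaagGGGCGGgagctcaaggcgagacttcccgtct

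Most divergent promoters were open. Of the 698 pairs, 592 had a region within 1 kb of both ends (84.8%, interval 82.0 to 87.3), and in all but 1 of the other 106 neither gene had one. Over all 19565 protein-coding genes that could be placed on a strand, 40.9% had a region within 1 kb of the 5′ end. Genes of pairs had one in 84.8% of cases (1178 of 1389) and single genes, with no other placed coding 5′ end within 2 kb, in 36.0% (6141 of 17052). The difference was 48.8 percentage points (Newcombe interval 46.7 to 50.7). Counting each pair once in place of each gene gave the same difference with a wider interval (45.9 to 51.4). Single genes that had a divergent noncoding start within 1 kb stood between, at 56.1% (392 of 699), which was 28.7 points (24.6 to 32.8) below the genes of pairs and 20.9 points (17.1 to 24.6) above the other single genes. When the minus-strand ends were moved by 50 kb, 6.02% of them had a region.

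Pair promoters were also richer in CpG, the dinucleotide that is depleted in most of the mouse genome but kept in CpG islands. In the 300 bases around the start (250 before and 50 after), which RefSeq gave for 1087 of the 1389 pair genes, the median ratio of observed to expected CpG was 0.850 (0.836 to 0.866), against 0.583 (0.571 to 0.594) in 12080 single genes. Among genes with a region the medians were closer, 0.854 and 0.789, a difference of 0.0650 (0.0443 to 0.0902) in place of 0.268. A promoter with a ratio of at least 0.6 and a GC content of at least 50% was called CpG-rich here, and 83.3% of the pair genes and 46.3% of the single genes met this. Among CpG-rich promoters, 90.8% of 906 pair genes and 64.4% of 5588 single genes had a region, a difference of 26.4 points (24.0 to 28.5). Among the other promoters the shares were 72.9% of 181 and 18.4% of 6492, a difference of 54.6 points (47.6 to 60.6). The gap between pair and single genes was thus present in both classes and smaller in the CpG-rich class. CpG-rich single genes with a divergent noncoding start had a region in 72.2% of 352 cases, 18.7 points (13.8 to 23.9) below CpG-rich pair genes.

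**Figure D1:**
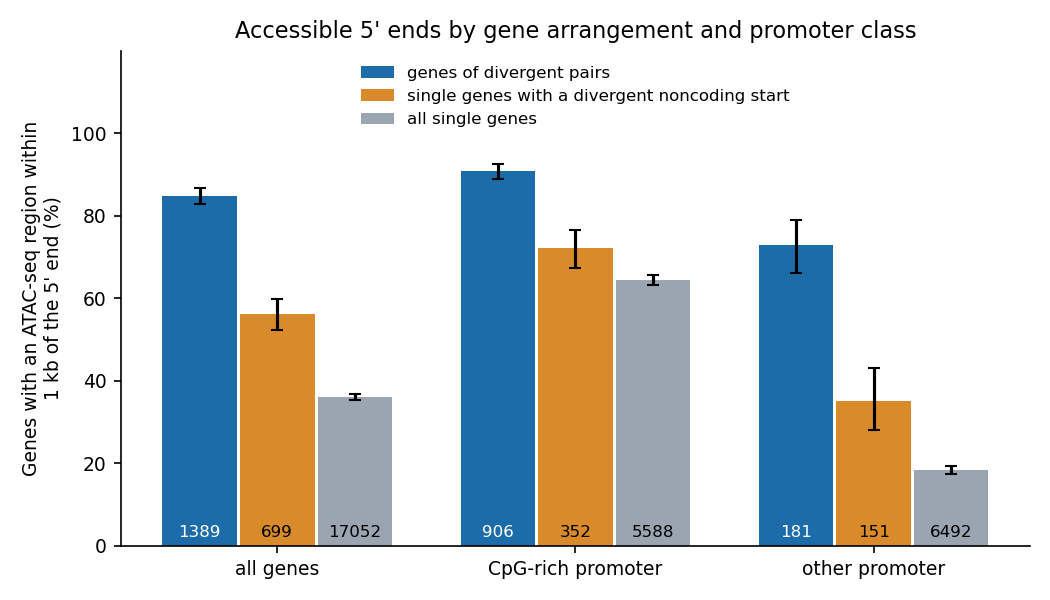
Bars give the percentage of genes with a region within 1 kb of the 5′ end, with 95% Wilson intervals and the number of genes at the foot of each bar, for all genes and for genes with CpG-rich or other promoters. Pair genes (84.8, 90.8 and 72.9%) stand above single genes (36.0, 64.4 and 18.4%) in each group, with single genes beside a noncoding start between them.

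The comparison rests on the outermost 5′ end of each gene, which need not be the start used in these cells. A region at any start listed by RefSeq was also counted, in the smaller set of genes with a listed start. The outermost end counted there only if listed. Of these genes, 84.2% of 1174 pair genes and 40.9% of 13508 single genes had one, a difference of 43.2 points (40.9 to 45.4). Pairs whose heads overlap, so that the 2 genes run through each other's first bases, were not members. Of 386 such pairs, 264 had a region (68.4%, 63.6 to 72.8). They include the mitochondrial chaperones Hspd1 and Hspe1 (highest fold 10.7) and the purine synthesis genes Paics and Ppat (10.6). Col4a1 and Col4a2, basement membrane collagens in the same arrangement, had none, nor did Surf1/Surf2 and Fen1/Tmem258, and the thymidine kinase gene Tk1 with Afmid had 4.83. Tbp and Psmb1, 1612 bp apart, were outside the rule.

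Over all regions, open divergent promoters had slightly higher folds than open single ones. The value used for the strength of a region was the fold over background at its strongest summit, the one with the highest −log10 q. Its median was 8.50 (8.16 to 8.76; quartiles 6.33 and 11.6) in the 714 regions and 7.85 (7.76 to 7.93; quartiles 6.03 and 10.4) in 6981 regions at a single coding end, a difference of 0.65 (0.23 to 1.00). In the 50% of regions with the lowest q-values the difference was 0.45 (−0.0091 to 1.11) and in those with an IDR score of 1000 it was 0.46 (−0.19 to 0.99), so both intervals held 0. In 23978 regions with no coding 5′ end within 1 kb it was 6.87. Taking only the strongest region of each pair or gene, the medians were 9.28 (8.93 to 9.74) for 592 pairs and 8.20 (8.12 to 8.31) for 6265 genes with a region near no other coding end. This set is defined by its regions and can hold genes with another coding 5′ end within 2 kb, so it is larger than the 6141 single genes with a region. At CpG-rich promoters the regions had medians of 8.65 (8.33 to 8.999) at pairs and 8.11 (7.97 to 8.22) at single ends. A region at a pair counted here if either gene had a CpG-rich promoter, a looser condition than at single ends. The median −log10 q was 40.3 in the pairs' regions and 32.9 in those at single ends, and 65.4% against 56.2% had the highest IDR score, 1000. This score measures agreement between replicate lists of peaks. Which samples, or parts of pooled samples, were compared is not given in the sources used here.

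No difference in width was detected between regions at pairs, which lie at 2 starts, and regions at single ends. Their median width was 462.5 bp (443 to 480), against 454 bp (448 to 460) at single ends. The difference of 8.5 bp had an interval of −17 to 32 bp. Several summits within 1 region were found in 74.5% of regions at pairs and 74.9% at single ends, a difference of −0.38 points (−3.85 to 2.85). Regions with no coding 5′ end had a median width of 388 bp.

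**Figure D2:**
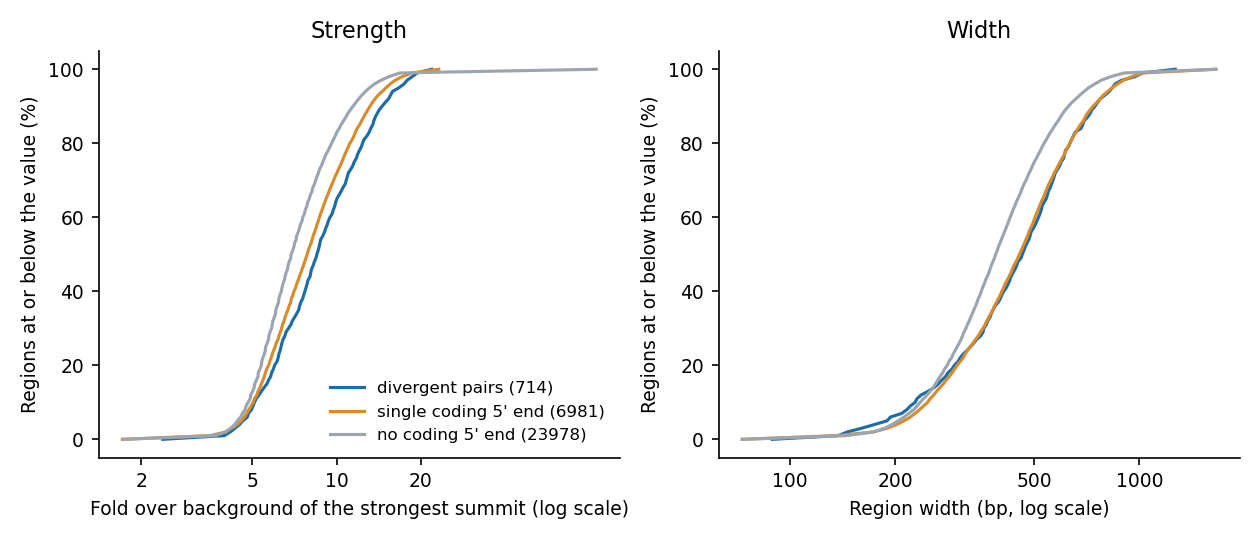
Lines join the percentiles of the fold over background of the strongest summit (left) and of the region width (right), both on log axes, for regions at divergent pairs, at a single coding 5′ end and at no coding 5′ end. The pairs' line lies to the right of the single-end line for fold (medians 8.50 and 7.85) and on it for width (462.5 and 454 bp).

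How many of the 2 starts a region held changed with the distance between them. For each pair the strongest region was taken. It held both 5′ ends in 457 of 592 pairs (77.2%, 73.6 to 80.4), 1 end in 83 and neither in 52. With ends at most 100 bp apart, 86.7% of 294 regions held both, and with ends over 100 and up to 200 bp apart 90.7% of 140 did. The share was 62.6% of 107 up to 400 bp and 8 of 32 up to 700 bp, and none of 19 held both beyond 700 bp, where each held 1. The median width of the strongest regions was 502 bp, shorter than the longest distances. The share of pairs with any region was 85.7, 89.7, 84.9 and 80.0% in the first 4 classes of distance, and 57.6% (40.8 to 72.8) in the 33 pairs over 700 bp apart.

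The strongest summit lay between the 2 starts in 19.7% of pairs with ends at most 100 bp apart, in 56.4% up to 200 bp, in 66.4% up to 400 bp and in 81.3% up to 700 bp. Starts farther apart leave more room between them, so such a rise can follow from the distance alone. A preference for the space between the starts was not tested. Over all pairs the strongest summit fell on the side of the minus-strand gene in 189 and on that of the plus-strand gene in 155. Its median distance to the nearer start was 48 bp. Among the 6265 genes with a region near no other coding end, 56.7% (55.4 to 57.9) had the summit upstream of the 5′ end. Among these classes of distance, the median fold was highest in pairs over 100 and up to 200 bp apart, at 10.8 (9.44 to 11.3), against 8.71 (8.18 to 9.33) for pairs at most 100 bp apart.

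**Figure D3:**
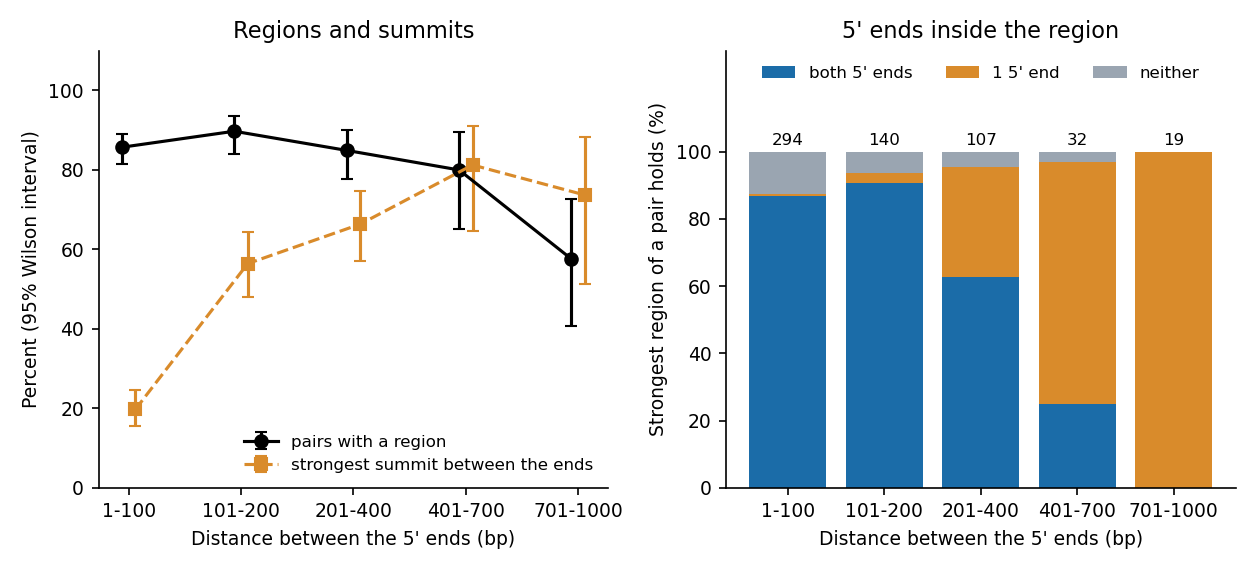
By distance between the 5′ ends in bp, the left panel gives the percentage of pairs with a region (circles) and of strongest regions whose summit lies between the ends (squares), with 95% Wilson intervals, and the right panel the percentage of strongest regions that hold both, 1 or neither end, with their number above. Regions holding both ends go from 86.7% in the closest pairs to 0% beyond 700 bp, and summits between the ends from 19.7% to 73.7%. Longer distances are harder for 1 region to span and leave more room for a summit between the ends.

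In 116 of the 592 open pairs (19.6%) the accessible DNA was split into several regions: 104 pairs had 2, 10 had 3 and 2 had 4. The midpoints of the 2 strongest were a median of 471 bp apart (178 to 1420), and their median folds were 9.13 and 6.08. Among the strongest such pairs were Mrpl50/Zfp189, a mitochondrial ribosomal protein with a zinc finger gene (folds 17.9 and 4.48), Pdcd10/Serpini1 (17.8 and 8.67), Cep170/Sdccag8, both of the centrosome (17.6 and 4.17), and Qtrt2/Ccdc191 (17.1 and 8.90). In Mrpl50/Zfp189 and Qtrt2/Ccdc191 the stronger region held both starts and the weaker neither. In the other 2 pairs, with starts 641 and 681 bp apart, the stronger held 1.

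The highest fold among the 714 regions was 21.9, at chr8:22060300-22060817 (coordinates of the list, read as GRCm38) between Atp7b, a copper transporter, and Alg11, a mannosyltransferase of N-glycan synthesis, 647 bp apart. Next came Hmmr/Nudcd2 at 21.6 (Hmmr is a hyaluronan receptor and spindle protein), Etfdh/4930579G24Rik at 21.6 (Etfdh passes electrons from fatty acid oxidation to ubiquinone), Ccdc146/Fam185a at 20.7 and Xrcc4/Tmem167 at 20.4. The widest were Mapk1ip1/Ppp2r2d (1268 bp), Ankib1/Krit1 (1236 bp) and Tmem69/Gpbp1l1 (1179 bp), with 5, 6 and 6 summits and folds of 8.08, 6.62 and 9.98. All 3 held both starts. The narrowest, at Ccni/2010109A12Rik (89 bp), Exoc8/Sprtn (95 bp) and Mettl25/Ccdc59 (110 bp), had 1 summit each, folds of 2.78, 5.51 and 4.80, and held neither start. The starts of 5 pairs were only 1 bp apart, and all 5 were open. In Capza1/St7l, Ears2/Ubfd1 and Klhl18/Kif9, the first of them by name, a region of 483 to 773 bp covered both starts, with folds of 8.76, 8.31 and 6.20. At the other limit, 2 of the 5 pairs 978 to 1000 bp apart had a region, Pcgf2/Psmb3 (7.44) and Tbc1d10c/Ppp1ca (9.05). The 13 pairs 1007 to 1198 bp apart lay outside the rule and had no region within 1 kb of both ends. At such distances fewer places lie within 1 kb of both ends, and whether this accounts for the count was not tested.

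Some gene groups were in divergent pairs more often than others. Over all placed protein-coding genes, 7.1% were in a pair. Of 81 DNA repair genes, 28 were (34.6%, 25.1 to 45.4), as were 25 of 80 genes of the respiratory chain and ATP synthase (31.3%), 21 of 78 mitochondrial ribosomal proteins (26.9%), 5 of 20 aminoacyl-tRNA synthetases, 24 of 99 histones (24.2%), 12 of 58 splicing factors (20.7%) and 7 of 38 proteasome subunits (18.4%). Cytosolic ribosomal proteins (13 of 84), DNA replication genes (6 of 41) and chaperones (10 of 77) had shares of 15.5, 14.6 and 13.0%. Zinc finger genes named Zfp were at 5.63% (22 of 391). None of 44 collagen chains, 53 keratins or 25 salivary epithelial and stem or progenitor markers was in a pair. Genes whose heads overlap, such as Col4a1 and Col4a2, do not count as a pair by the rule. These shares follow from the annotation and the rule, and the openness of the pairs in organoids is given next.

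**Figure D4:**
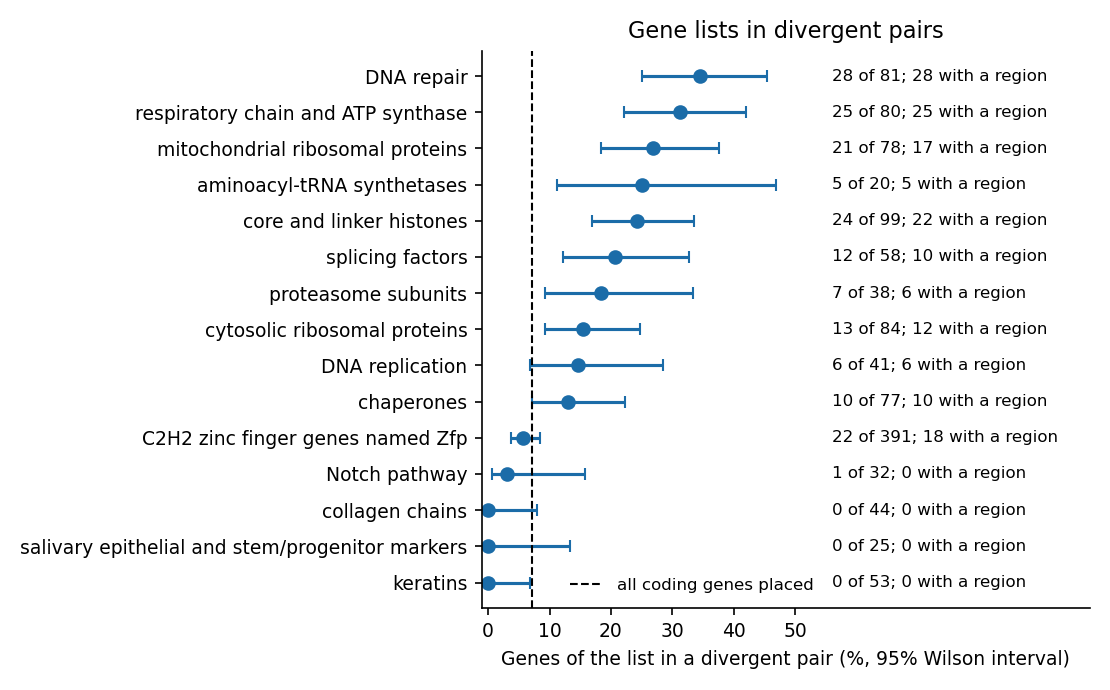
Points give the percentage of each list's placed genes that belong to a divergent pair, with 95% Wilson intervals, and the dashed line gives all placed coding genes. The text at the right gives the number in pairs of all genes in the list and how many of those in pairs had a region, from 28 of 81 for DNA repair, all 28 with a region, to 0 of 53 for keratins.

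Over all genes in pairs, 84.8% had a region, and the counts of each list are to be read against that share. All 28 DNA repair genes in pairs had one, with a median fold of 11.6 for the strongest region of each, against 9.28 over all open pairs. Of the 44 single DNA repair genes, 32 had one. The genes cover several repair routes. Xrcc4 (20.4) joins broken ends with Lig4, itself in a pair with Abhd13 (8.41). Palb2 (17.4, with Dctn5), Brca1 (11.2, with Nbr1) and Rad51c (7.36, with Tex14) act in homologous recombination, Atm (16.8, with Npat) signals double-strand breaks, Pms1 (13.6) and Pms2 (11.9) act in mismatch repair, and Ercc8 (15.7, with Ndufaf2) and Xpc (9.28, with the splicing factor Lsm3) in nucleotide excision repair. Among these strongest regions the lowest values were 6.54 and 6.75. They were those of Fancd2 (with Emc3), of the Fanconi anemia pathway, and of Polh (with Xpo5), a polymerase that copies past damage. The strongest region need not lie over the gene's own start. The 11.2 of Brca1 was a region on the Nbr1 side that held neither start, and the region over both starts had 5.38. The list does not hold every repair gene, and Nthl1 (with Tsc2), a base excision glycosylase, and Eme2 (with Mrps34), part of a structure-specific nuclease, were outside it and in pairs without a region.

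The 6 DNA replication genes in pairs all had a region (84.8% over all pair genes), with a median fold of 12.0, and of 30 single ones 26 had one. Rpa3, a subunit of the single-strand binding protein RPA, had 17.4 at chr6:8259012-8259814 with Umad1, over the stretch with 2 CCAAT boxes shown above. Pcna, the sliding clamp, had 13.5 with Cds2, Mcm4, part of the replicative helicase, 12.4 with the end-joining kinase Prkdc, the polymerase subunits Pole and Pole3 11.7 and 9.74, and Orc6 of the origin recognition complex 10.6. Mcm4/Prkdc and Atm/Npat each had 1 region that held both starts, of 787 and 856 bp.

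In the mitochondrial lists, all 25 pair genes of the respiratory chain and ATP synthase, assembly factors included, had a region (30 of 49 single ones), with a median fold of 8.68. They ranged from Ndufa5 of complex I, with Asb15 (18.3), to the assembly factor Ndufaf3, with Dalrd3 (4.96). Complex II genes Sdha, Sdhc and Sdhd, each with a partner outside the list, had 5.89, 9.66 and 8.64. Of the mitochondrial ribosomal proteins, 17 of 21 in pairs and 34 of 44 single ones had a region. The promoter of Mrpl46/Mrps11 served a protein of each mitochondrial ribosomal subunit (42 bp apart, fold 10.8), and Mrpl32/Psma2 joined the mitochondrial ribosome with the proteasome (15.7). Mrpl10, Mrpl54, Mrps34 and Mrps5 had none. All 5 aminoacyl-tRNA synthetases in pairs had a region, among them the mitochondrial enzymes Ears2, Fars2, Iars2 and Sars2, with folds of 4.44 to 12.4.

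In the remaining lists, a region was found for 12 of 13 cytosolic ribosomal proteins in pairs and 54 of 66 single ones, for all 10 chaperones in pairs and 36 of 56 single ones, and for 10 of 12 splicing factors in pairs and 35 of 43 single ones. Of the proteasome subunits, 6 of 7 in pairs and 19 of 29 single ones had one, and of the Zfp genes 18 of 22 and 194 of 350. The shares in pairs of splicing factors (83.3%), proteasome subunits (85.7%) and Zfp genes (81.8%) were near the 84.8% of all pair genes. The median fold of the open pairs of a list ran from 6.80 for the proteasome to 12.0 for DNA replication. Beside the histones, 6 pairs were made of 2 genes of 1 list: Mrpl46/Mrps11 above, the stress-induced HSP70 gene Hspa1a with Hspa1l (547 bp apart, fold 6.59), and 4 Zfp pairs, of which Zfp944/Zfp758 (12.3) and Zfp942/Zfp943 (12.1) were the strongest and Zfp668/Zfp646 (3.86) the weakest.

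Histones were the list with the most pairs made of 2 of its own members. In 12 of them both genes were histones, 11 joining an H2A with an H2B gene and 1 joining H2bc9 with H3c7. Of these 11 H2A/H2B pairs, 10 had 1 region each, which held both starts, with folds from 4.85 (H2ac20/H2bc21) to 16.4 (H2ac12/H2bc12) and widths of 353 to 466 bp. H2bc9/H3c7, 608 bp apart, had 2 regions, with a highest fold of 10.0. The H2A/H2B pair left without a region was H2bc1/H2ac1, the testis forms of H2B and H2A, 281 bp apart. Of 51 single histone genes 18 had a region. Histone genes are near copies of each other, and how reads that match several places were treated is not given in the sources used here, so the folds of single copies are uncertain.

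The letters between the starts could be read for 142 pairs, those at most 250 bp apart with a RefSeq start at both ends, 7 of them H2A/H2B pairs. Each of these 7 held at least 2 CCAAT boxes, and H2ac11/H2bc11 held 5. Their median GC content was 42.3%. Of the other 120 stretches of at least 30 bases, 18 held 2 or more CCAAT boxes (15.0%), and their median GC content was 64.7%. Over all 127 stretches, 44 held a CCAAT box (34.6%), 56 a GC box (44.1%), 19 an ETS site (15.0%) and 8 an NRF1 site (6.30%). No matches of different motifs overlapped, and 32 stretches held none of these 4, nor a YY1 or AP-1 site. Stretches were counted by pair, so the same letters count more than once where pairs share both starts, as at Bysl/Med20 and Bysl/Gm20517.

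**Figure D5:**
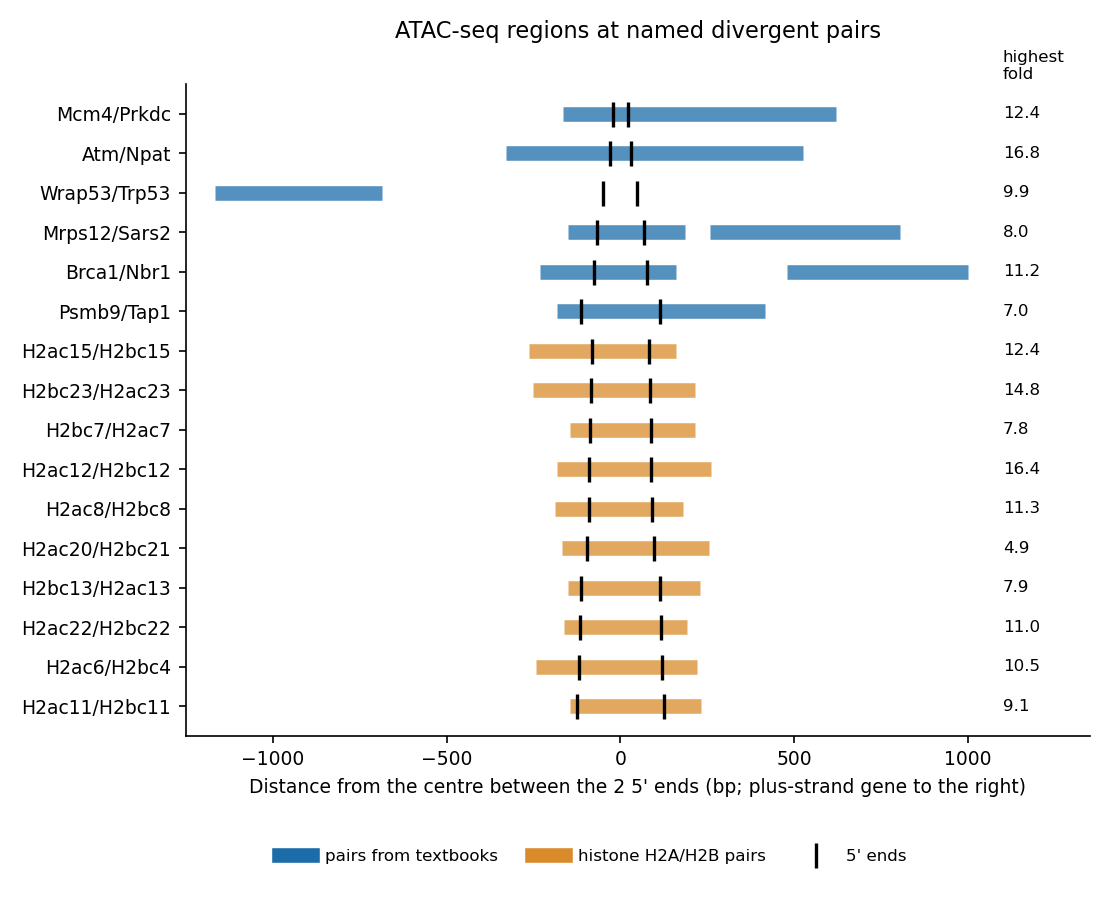
Horizontal bars show each region as distance in bp from the centre between the 2 5′ ends (vertical ticks), with the plus-strand gene to the right, for 6 pairs known from textbooks and the 10 open histone H2A/H2B pairs, and the number at the right is the highest fold of the pair. Each histone region spans both ends, while the region of Wrap53/Trp53 lies 687 to 1166 bp to the left of the centre and Brca1/Nbr1 and Mrps12/Sars2 have a second region to the right.

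Other well-known divergent pairs showed different layouts. The region of Wrap53/Trp53 (fold 9.92, 480 bp), for the tumour suppressor p53 and a telomerase holoenzyme protein, held neither start and lay 687 to 1166 bp from the centre on the Wrap53 side. Brca1/Nbr1 had a weaker region over both starts, at chr11:101551801-101552190 (5.38), and a stronger one on the side of the autophagy receptor Nbr1, at chr11:101552509-101553032 (11.2). Mrps12/Sars2 had regions of like strength, 8.04 and 6.94. Psmb9/Tap1, an immunoproteasome subunit and a peptide transporter of antigen presentation, had 1 region over both starts with a fold of 7.02.

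The letters of the promoters themselves differed between pairs and single genes, in the 300-base windows. The ETS site CCGGAAG, on either strand, was in 29.0% of pair promoters and 11.04% of single ones, and in 13.1% of all promoters read. Among genes with a region the shares were 30.3 and 19.7%, a difference of 10.5 points (7.47 to 13.7), and among CpG-rich promoters with a region 32.1 and 21.9% (10.2 points, 6.77 to 13.7). The YY1 site AAGATGG was in 11.1 and 7.55% of promoters with a region (difference 3.55 points, 1.55 to 5.81), and in 6.59% of all. The TATA box TATAAA, on the gene's own strand, was in 2.83 and 4.46% (−1.64 points, −2.71 to −0.27), and the AP-1 site TGANTCA in 3.35 and 5.26% (−1.91 points, −3.08 to −0.44), with 8.12 and 6.56% over all promoters. Among CpG-rich promoters with a region, the YY1 difference was 3.10 points (0.91 to 5.58), that of the TATA box −1.52 (−2.53 to −0.18) and that of AP-1 −0.62 (−1.75 to 0.85), so the AP-1 difference was no longer clear of 0. The 2 windows of a close pair overlap and can share a site, so these intervals are too narrow for pairs.

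The other sites gave no clear difference once a region was required. The NRF1 site was in 6.60 and 6.45% of pair and single promoters with a region (difference 0.15 points, −1.44 to 2.02; 4.10% of all promoters), the CCAAT box in 46.6 and 43.2% (3.43 points, −0.015 to 6.89; 39.2% of all) and the GC box in 69.8 and 70.8% (−0.93 points, −4.17 to 2.19; 50.9% of all). Among CpG-rich promoters with a region, the GC box was less frequent at pairs, 74.5 against 78.9% (−4.38 points, −7.73 to −1.21). A match says only that these letters are there, not that a protein bound.

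Regions at pairs with a CCAAT box had higher folds. In the 420 open pairs with letters for both genes, the median fold of the strongest region was 10.8 (9.98 to 11.3) in 227 pairs with a CCAAT box in either promoter window and 8.24 (7.80 to 8.77) in 193 without, a difference of 2.59 (1.21 to 3.53). At genes with a region near no other coding end the medians were 9.18 in 2125 with the box and 7.82 in 2766 without, a difference of 1.36 (0.97 to 1.70). Whether the difference was larger at pairs was not tested. For ETS, NRF1, GC box, YY1, TATA box, AP-1 and CpG-rich promoters the interval of the difference at pairs held 0. The ETS site went with a median fold of 9.07 in 155 pairs with it and 9.73 in 265 without (difference −0.66, −1.72 to 1.05). At the genes with a region near no other coding end, which are far more numerous, the difference was 0.60 (0.23 to 0.90) for ETS, −0.88 (−1.44 to −0.21) for the TATA box and 0.57 (0.21 to 0.93) for CpG-rich promoters, and the intervals for NRF1, GC box, YY1 and AP-1 held 0.

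The 106 pairs without a region were less often CpG-rich. Of 132 pair genes without a region that had letters, 62.9% were, against 86.2% of pair genes with a region, a difference of 23.3 points (15.2 to 32.0), and the CCAAT box was in 33.3% against 46.6% (13.3 points, 4.28 to 21.4). By name, several held genes known from other tissues, picked here after their values were seen. Smc1b (with Ribc2), Terb2 (with Patl2) and Rec114 (with Hcn4) act in meiosis, and Plcz1 and Capza3, a pair 69 bp apart, in sperm. Rom1 (with Eml3), Gnat2 (with Ampd2) and Gngt1 (with Tfpi2) belong to photoreceptors, and Kirrel2 and Nphs1 to the kidney podocyte. Others are broadly used genes, such as Timm23/Parg (mitochondrial import), Ftsj3/Psmc5 (proteasome), Rnf151/Rps2 (ribosome) and Tsc2/Nthl1. Rfng/Gps1, 9 bp apart, was the only pair with a gene of the 32 on the Notch list (Rfng, a glycosyltransferase of Notch receptors), and had no region either.

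Markers were checked against the label of the organoids. An accessible region, present within 1 kb of 40.9% of all coding 5′ ends, was found at 6 of 9 epithelial markers (Epcam, Cdh1, Krt5, Krt14, Krt8 and Cldn4, but not Krt18, Krt7 or Trp63). The stem or progenitor list (Cd164, Sox9, Cd24a, Itgb1 and Cd44) had one at 5 of 5. Trp63, counted here as epithelial, also marks a stem or progenitor population of these organoids in the study, and with it that list would stand at 5 of 6. Only the outermost 5′ end of each marker was checked, which need not be the start used in these cells. A region at a start farther away was not counted, so a marker without a region, such as Trp63, may be open elsewhere. Of 4 pro-acinar markers 2 had one (Alcam and Clcn3, but not Chrm3 or Aqp5), a share near that of all genes. None of 6 endothelial, 6 fibroblast or 4 neural markers had one, and of 6 immune markers 1 did (Cd68). None of these genes was in a divergent pair, so the pairs carry no marker of a cell type by this list.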

How the data were processed

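The 4 samples were covered by 1 deposited list of ATAC-seq peaks in narrowPeak format. The study's methods name the ENCODE ATAC-seq pipeline and 1 list made from all organoid samples. The number of peaks stated there differs from that of the deposited list, and whether the lists are the same is not known. The caller's version and filters are not given in the sources used here. In that deposited list the score is the scaled IDR value, the signal is the fold over background, and the q-value column holds −log10 values, with 1 line per summit (69545 lines). The lines were joined by their coordinates into 32011 regions, and the summit with the highest −log10 q gave each region its fold and −log10 q. No per-sample values, counts or columns of comparisons by the authors were used.

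The submitters' processing notes name GRCm39 and HOMER without a role. The coordinates were read as GRCm38, because 40.9% of coding 5′ ends of GRCm38.p6 (RefSeq) had a region within 1 kb, against 5.04% of GRCm39 ends (GENCODE release M39). The strand of a gene came from GENCODE by symbol and chromosome (19565 of 21887 coding genes, 89.4%). For 99 genes on chromosome 14 and 2 elsewhere it clashed with the RefSeq promoter table, and these were left out. Where both sources gave a strand, 99.4% of genes had the same one. Genes without a strand, such as the olfactory receptors and Atp5pf, were not placed and were not seen as neighbours, so a single gene may lie near one. Promoter letters (RefSeq, GRCm38.p6) were the entry nearest to the 5′ end, for 13988 coding genes.

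Members, gene lists, motifs and pairs were chosen with earlier results of these data known. Named pairs were the 5 with the highest fold, 3 widest, 3 narrowest, 3 closest, up to 5 with several regions, textbook pairs, and pairs from the Notch, stem or progenitor, DNA repair and DNA replication lists or with 2 members of 1 list. Further names were picked with their values in view. Some pairs that meet the rule are not reported here. Shares have 95% Wilson intervals, differences of shares Newcombe intervals, and medians intervals from binomial ranks, whose bounds were subtracted crosswise for differences of medians. Python 3.11.15, numpy 2.4.6, pandas 2.3.3 and scipy 1.17.1 were used. The code was tested on simulated pairs and shares. Alternatives were other windows, distances, peak subsets, overlap in place of midpoint, overlapping heads and other single genes.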

Additional observations from a re-analysis of the deposited data

How the results depend on the processing

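The excess of pair genes with a region over single genes stayed positive, with an interval above 0, in all 15 alternatives (26.4 to 54.6 points). Its lowest value was in CpG-rich promoters. The difference in median fold stayed within the interval of the reported value in 13 alternatives. In the 50% of regions with the lowest q-values (0.448) and in those with an IDR score of 1000 (0.458) its own interval reached below 0. The difference in median width stayed within its interval in 12. The number of regions was 467 with an IDR score of 1000 only, against 714. The share of strongest regions holding both ends was 82.2% for pairs at most 500 bp apart. The difference in CpG observed to expected fell from 0.268 to 0.0650 in genes with a region only. The difference in regions with several summits, whose interval held 0 throughout, turned from −0.38 points to 1.61 with a window of 500 bp, 0.41 with distances up to 500 bp, 1.81 in the 50% with the lowest q-values, 2.51 with an IDR score of 1000, 0.013 with overlapping heads, 0.38 with single ends free of noncoding starts and 0.022 in regions holding a coding end. The cause was not tested. Strand from the RefSeq table, kept clashes, other starts and promoter classes were alternatives chosen after seeing the data.

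No paired analysis was possible because the deposited list holds no value per sample, and for the same reason leaving out a sample was not possible. Depth is unknown, so a pair without a region is one not called at this depth.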
